A study of Mus musculus with 6 samples.

Results

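The Zic family of zinc finger transcription factors was followed in newborn mouse epidermis labelled as control or as knockout for the ligases of Polycomb repressive complex 1 (PRC1). Its members were taken by gene symbol: Zic1, Zic2, Zic4 and Zic5, 4 of the 24453 symbols counted in each library, and all 4 passed the filter on low counts. The data are 6 RNA sequencing libraries of interfollicular epidermis, sorted from back skin at postnatal day 0 as cells positive for EpCAM and Sca1 and high in α6-integrin. 3 libraries carry the genotype label Control, with no further allele given, and 3 the label Ring1a-/- Ring1b-/-; here they are C1, C2 and C3 and K1, K2 and K3, after their replicate numbers. The labels name neither a Cre driver nor the deleted part of either gene. They do not tie a library to an animal, and p-values therefore reflect only how these libraries vary, which may be technical.

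ZIC proteins bind DNA through a tandem array of zinc fingers that resembles that of the GLI factors, the effectors of Hedgehog signalling. The genes lie in head-to-head pairs, and in the embryo they are known from the dorsal neural tube, cerebellum, neural crest and dorsal somites rather than from epidermis. PRC1 ubiquitinates histone H2A and keeps developmental regulators silent, often at promoters rich in CpG dinucleotides. The comparison of the groups addresses what PRC1 does in skin epithelium, the subject that the series title names.

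The promoters are shown because the RefSeq windows of Zic1 and Zic4 differ in CpG content. Sequences of 250 bases before the start, from RefSeq on GRCm38.p6, matched 3 of the 4 members, and capitals mark each CpG. The Zic1 window (chr9:91365769-91366018, minus strand) lies inside the span that GENCODE M21 gives to Zic4, the Zic4 window is chr9:91368722-91368971 on the plus strand, and the Zic5 window is chr14:122465659-122465908 on the minus strand. The Zic4 window begins 6309 bases inside the gene from the outermost GENCODE start, the start used for positions elsewhere in the text.
Zic1: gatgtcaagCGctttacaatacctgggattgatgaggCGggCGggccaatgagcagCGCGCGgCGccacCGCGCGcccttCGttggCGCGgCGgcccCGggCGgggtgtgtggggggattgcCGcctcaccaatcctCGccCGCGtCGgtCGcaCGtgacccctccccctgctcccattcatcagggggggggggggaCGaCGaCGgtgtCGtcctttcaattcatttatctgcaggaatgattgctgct
Zic4: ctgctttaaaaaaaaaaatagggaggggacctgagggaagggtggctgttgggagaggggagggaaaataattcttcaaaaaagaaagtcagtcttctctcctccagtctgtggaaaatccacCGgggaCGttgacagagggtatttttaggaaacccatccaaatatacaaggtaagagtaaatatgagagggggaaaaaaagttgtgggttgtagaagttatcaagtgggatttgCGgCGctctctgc
Zic5: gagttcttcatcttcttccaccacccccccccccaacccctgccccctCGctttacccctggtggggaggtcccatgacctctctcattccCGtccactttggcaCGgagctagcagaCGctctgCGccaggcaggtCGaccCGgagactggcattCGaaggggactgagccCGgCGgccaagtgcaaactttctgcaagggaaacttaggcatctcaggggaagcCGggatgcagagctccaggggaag
The Zic1 window held 27 CpG dinucleotides at a GC content of 66.0%, and 91.4% of 32841 RefSeq windows of the same length held fewer. The Zic5 window held 11, more than 64.4% of windows, and the Zic4 window held 4, more than 37.8%, against a median of 6 over all windows. The GLI core motif ACCACCC was found in the Zic5 window and in 3.92% of all windows, on either strand. The ZIC core motif CAGCAGG was found in none of the 3 and in 8.44% of all windows, CCAAT in the Zic1 window and in 33.9%, and TATAAA in none and in 12.4%. These matches describe letters only.

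Total counts were 18951665 to 31187270 per library, at which 3 counts, the limit that a count of 0 allows, correspond to 0.0974 to 0.154 CPM (counts scaled to a common TMM library size). The label check did not separate the groups. In order of replicate number, Ring1 (the gene of Ring1a) stood at 30.9, 17.1 and 3.90 CPM with the control label and at 1.66, 5.20 and 14.2 CPM with the knockout label. The order in the replicate 3 libraries ran against the labels, and groups are called by their labels throughout. Over all tested genes, the first principal component (56.7% of the variance) did separate the labels. It was -84.6, -64 and -71 in C1, C2 and C3 and 93.5, 68.4 and 57.8 in K1, K2 and K3. Rnf2, the gene of Ring1b, had 43.2 to 63.1 CPM and 55.4 to 64.0 CPM, but reads outside a deleted part would still be counted. Xist, transcribed from the inactive X chromosome, was at 1760 CPM in C3, 6130 in K1 and 4730 in K2 and at 4.48 to 10.5 in the others. C3, K1 and K2 were also the libraries lowest in Ring1, and the cause was not tested. Of 14890 genes tested, 1512 were called at an edgeR adjusted p under 0.05, and 70.6% of these were higher in the knockout-labelled libraries, or 49.1% once GC content and transcript length were entered as an offset, a scaling under which the median over all genes was -0.14 (log2).

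All 4 Zic genes rose in the knockout-labelled libraries. In each of them, every knockout-labelled library lay above every control-labelled one, as did 17.6% of all tested genes, and 7.17% of tested genes were called higher. Of the 45 Zic counts in the 3 control-labelled libraries, 43 were of Zic1, and Zic4 and Zic5 had none. The median fitted log2 fold change of the members was 7.25, or 6.16 with Zic4 and Zic5 at their lower bounds, against 0.00 over all tested genes. All 4 passed the count filter only through the knockout-labelled libraries. Zic1 had 2 counts in C2, Zic2 had 2 over the control-labelled group, and Zic4 and Zic5 had 0. The number of members that rose and their median therefore do not speak for the family. In bulk RNA, more cells that express a gene and more RNA per cell cannot be told apart.

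**Figure D1:**
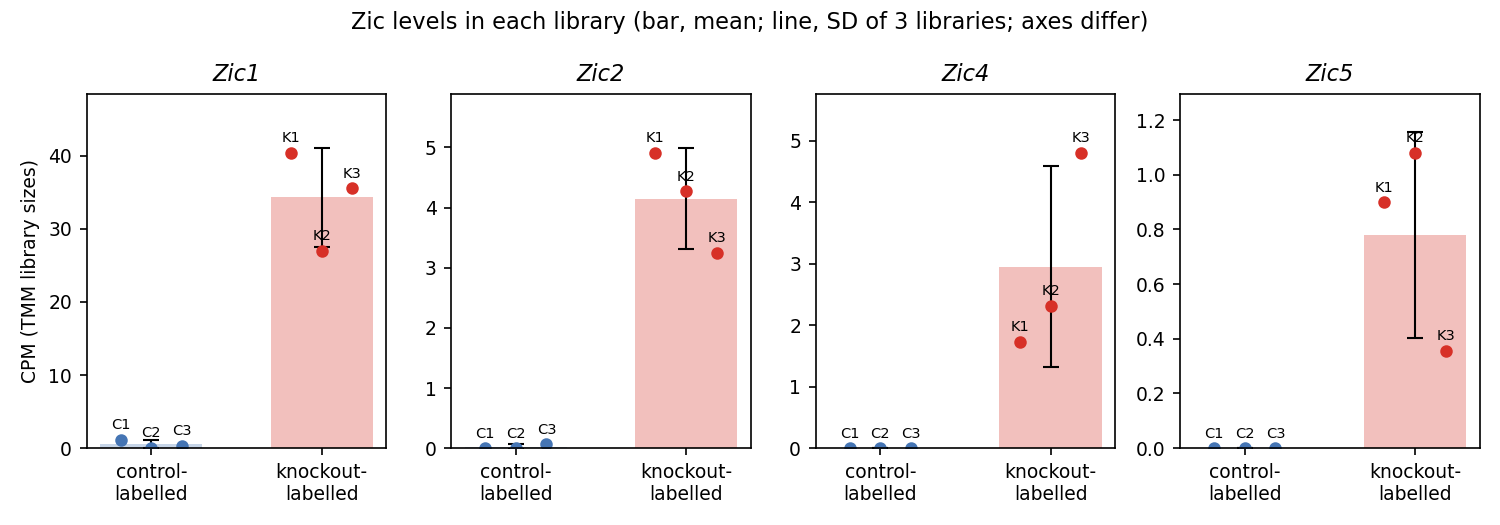
CPM of each Zic gene (vertical axes from 0, which differ between panels) in the control-labelled (blue) and knockout-labelled (red) libraries; points are libraries, bars means and lines the SD of 3 libraries. Control-labelled libraries reached at most 1.16 CPM, for Zic1 in C1, while the knockout-labelled ones held 27.0 to 40.4 CPM of Zic1 and 0.357 to 1.08 CPM of Zic5.

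Zic1, a factor of cerebellum, dorsal neural tube and dorsal somite, was the most abundant member. It lies on chromosome 9 at 91358058 to 91365810 (minus strand, GRCm38). In order of replicate number, its level was 1.16, 0.0874 and 0.342 CPM with the control label and 40.4, 27.0 and 35.5 CPM with the knockout label. The groups did not overlap, and C1 held 31 of the control-labelled counts. The fitted log2 fold change was 5.98 ± 0.68 (SE, n = 3 libraries per group; edgeR adjusted p = 0.00155). The ratio of pooled counts was 64.5 (exact 95% interval 47.8 to 89.4, for counting error only), and 153 without C1.

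Zic4, the partner of Zic1 in the cerebellum starts on the opposite strand of the same locus (chromosome 9, 91362413 to 91389348). All control-labelled libraries had 0 counts, and the knockout-labelled ones, in order of number, had 1.73, 2.32 and 4.81 CPM, from 50, 45 and 148 counts. K3 was the highest library. Zic4 was at least 80.7-fold higher, against 3 counts over the control-labelled group (edgeR adjusted p = 0.00652), at least 51.6-fold without K3, and at least 50.7- to 101-fold with any other library left out. The exons of Zic1 and Zic4 share 60 bases on opposite strands, 1.05% of the Zic1 exons, and no source used here gives the strand setting of the counts. The unnamed transcript Gm37477, not among the counted symbols, overlaps a further 4.53% of the Zic4 exons on the other strand, and 3.55% of the 100-base stretches of Zic4 transcripts occurred in it.

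Zic2, which acts in forebrain midline formation, neural tube closure and the routing of retinal axons, lies on chromosome 14 at 122475435 to 122479852 (plus strand). Its level was 0, 0 and 0.0684 CPM with the control label and 4.91, 4.27 and 3.25 CPM with the knockout label, in order of number. The 2 control-labelled counts were both in C3, and the knockout-labelled libraries were close to each other, with the highest 1.51 times the lowest. The log2 fold change was 7.13 ± 0.97 (SE; edgeR adjusted p = 0.00326) and the ratio of pooled counts 162 (exact 95% interval 44.4 to 1342). Without C3 no control-labelled count remained, and Zic2 was at least 67.8-fold higher.

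Zic5, a factor of neural crest and neural tube closure, lies beside Zic2 on the opposite strand (chromosome 14, 122456795 to 122465677). All control-labelled libraries had 0 counts, and the knockout-labelled ones had 0.900, 1.08 and 0.357 CPM, from 26, 21 and 11 counts. K3 was the lowest library. Zic5 was at least 19.3-fold higher against 3 counts over the control-labelled group (edgeR adjusted p = 0.0279), and at least 12.1-fold without C3, 12.7-fold without C1 and 12.1- to 25.6-fold over all left-out libraries. This call was the least secure of the 4: without C1, C2, C3, K2 or K3 the adjusted p was 0.0560 to 0.101, and without K1 Zic5 did not pass the count filter.

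Calls of Zic1 and Zic2 were kept under all 17 alternative settings, with an adjusted p of at most 0.0229. Without both replicate 3 libraries, in which the Ring1 order ran against the labels, Zic1 and Zic2 were called (edgeR adjusted p = 0.0229 for each) and Zic4 and Zic5 were not (0.0596 and 0.115). When Xist entered the edgeR model, Zic1, Zic2 and Zic4 were called (edgeR adjusted p = 0.00657, 0.0114 and 0.0180) and Zic5 was not (0.0858). Every fitted log2 fold change, in any setting that tested the gene, was above 0.

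**Figure D2:**
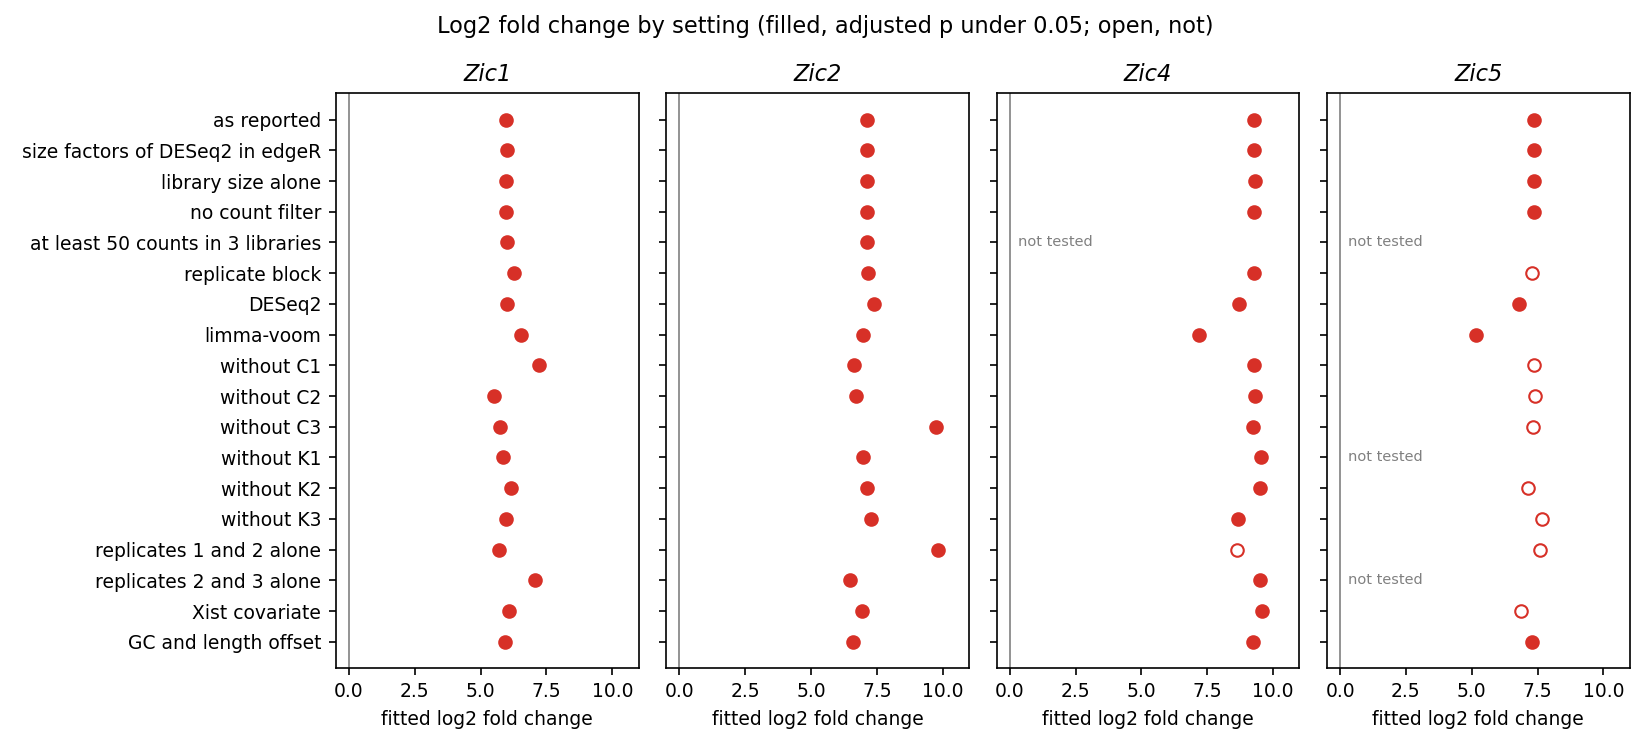
Fitted log2 fold change (horizontal axis) of each Zic gene under the reported fit and 17 alternative settings (rows; C and K with a number name a left-out library); filled points have an adjusted p under 0.05. Zic1 ranged from 5.52 to 7.22 and was filled throughout, while Zic5 was open in 8 settings and not tested in 3; where a group has no counts the fitted value depends on the prior count and is no bound.

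The share of each pair's counts is given by library, as a description, with intervals for counting error only. Zic4 took 4.11% of the pair's counts in K1 (exact 95% interval 3.06 to 5.38%), 7.91% in K2 (5.83 to 10.4%) and 11.9% in K3 (10.2 to 13.9%). The spread between separately amplified libraries is not in these intervals, and a difference between libraries was not tested. K3 was the highest of its group in Zic4 and between the others in Zic1. In the Zic2 and Zic5 pair, Zic5 took 15.5% in K1 (10.4 to 21.9%), 20.2% in K2 (12.96 to 29.19%) and 9.91% in K3 (5.05 to 17.0%). K3 was the lowest of its group in Zic2 and Zic5.

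**Figure D3:**
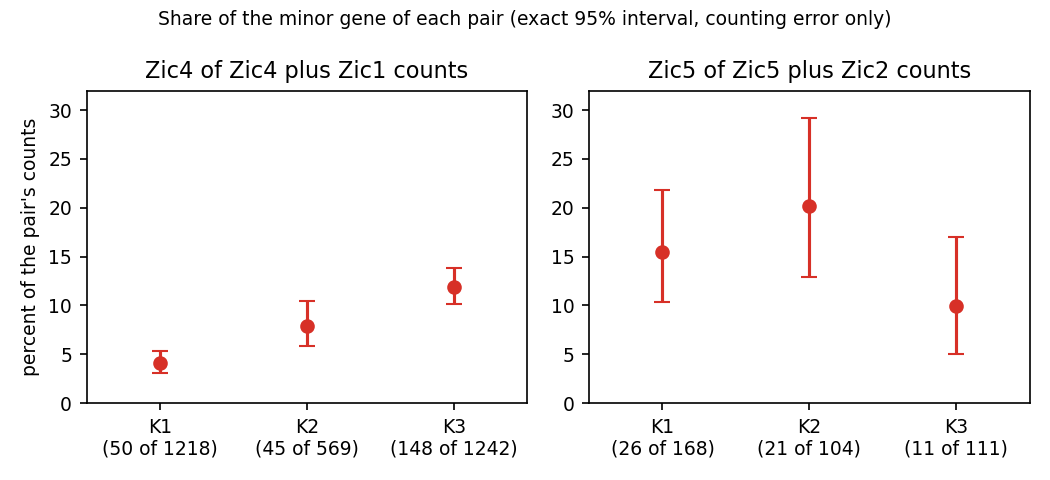
Percent of a pair's counts (vertical axis) that belonged to Zic4 (left, with Zic1) and to Zic5 (right, with Zic2) in K1, K2 and K3; lines are exact 95% intervals for counting error, and counts stand under each point. The Zic4 share ran from 4.11% in K1 to 11.9% in K3, and the Zic5 share from 9.91% in K3 to 20.2% in K2.

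Levels per length set the order among the members. Scaled to exonic length (GENCODE M21), the knockout-labelled mean was 6.02 ± 1.195 CPM per kb for Zic1, 1.44 ± 0.29 for Zic2, 0.285 ± 0.158 for Zic4 and 0.159 ± 0.0770 for Zic5 (SD, n = 3). Zic1 lay above Zic2, and Zic2 above Zic4, in every knockout-labelled library on this scale. Zic4 and Zic5 did not differ beyond their spread on this scale, with K1 lower in Zic4 (0.167) than in Zic5 (0.184). The many annotated Zic4 exons matter here, since scaled to the longest transcript the Zic4 mean was 0.758 ± 0.420 CPM per kb, against 0.163 ± 0.0790 for Zic5, and the 2 genes did not overlap. Scaled so, Zic2 and Zic4 were close in K3, at 1.331 and 1.235. Without length scaling Zic4 was the higher of them in K3, at 4.81 against 3.25 CPM. As CPM, the Zic1 mean exceeded the knockout-labelled mean of 64.4% of tested genes, and those of Zic2, Zic4 and Zic5 exceeded 25.0, 20.3 and 6.98%. None of the 100-base stretches of Zic1 or Zic2 transcripts occurred in the annotated transcripts of another gene on either strand, whereas 1.90% of those of Zic5 occurred in the pseudogene Gm12241.

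None of the tested genes around the loci was called with the Zic genes by edgeR. Zic1 and Zic4 lie in a gene-poor stretch in which none of the 16 other annotated genes within 500 kb was among the counted symbols. The nearest counted genes were Tbc1d2b, a Rab GTPase-activating protein 1087 kb away (78.1 ± 7.95 against 54.2 ± 12.3 CPM; edgeR adjusted p = 0.164), and the scramblase-related Plscr5, 804 kb away on the other side, with 0 counts in all 6 libraries. Around Zic2 and Zic5, 12 counted genes lay within 500 kb, 8 were tested, and edgeR called 0 of them higher or lower. At an unadjusted p under 0.05, 1 was higher (Ggact) and 1 lower (Tmtc4). Among the counted neighbours DESeq2 called 1 higher and 0 lower, and limma-voom called 0. Pcca, a subunit of propionyl-CoA carboxylase 54.5 kb away, had 6.23 ± 1.57 and 10.1 ± 0.727 CPM (edgeR adjusted p = 0.224). Clybl, a mitochondrial citramalyl-CoA lyase at 54.6 kb on the other side, had 3.18 ± 1.94 and 3.58 ± 0.704 CPM (adjusted p = 0.884), and the largest positive log2 fold change among the 8 was that of Ggact, 1.68 ± 0.61 (SE; edgeR adjusted p = 0.132).

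A noncoding gene between Zic5 and Zic2 was counted with the knockout label and not with the control label. 2610035F20Rik is transcribed away from Zic2, and its start lies 236 bases from the Zic2 start (chromosome 14, 122470284 to 122475199, minus strand). Its counts were 0 in every control-labelled library and 3, 4 and 24 in the knockout-labelled ones, at least 10.3-fold higher, or at least 3.81-fold without K3, but too few for the count filter, so the difference was not tested. Its highest library was K3, as for Zic4, while Zic2 was highest in K1. The next gene, Gm5089, had 1, 8 and 0 counts against 0, 1 and 1. Timm8a2, 418 kb away and also untested, had 0, 3 and 0 counts against 35, 2 and 27. Its ratio of pooled counts was 21.25 (exact interval 6.95 to 105.7, for counting error only). The groups overlapped, with 0.131 CPM of Timm8a2 in C2 and 0.103 CPM in K2. The remaining untested gene, 1700108J01Rik, had 0, 3 and 8 counts against 16, 3 and 11.

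**Figure D4:**
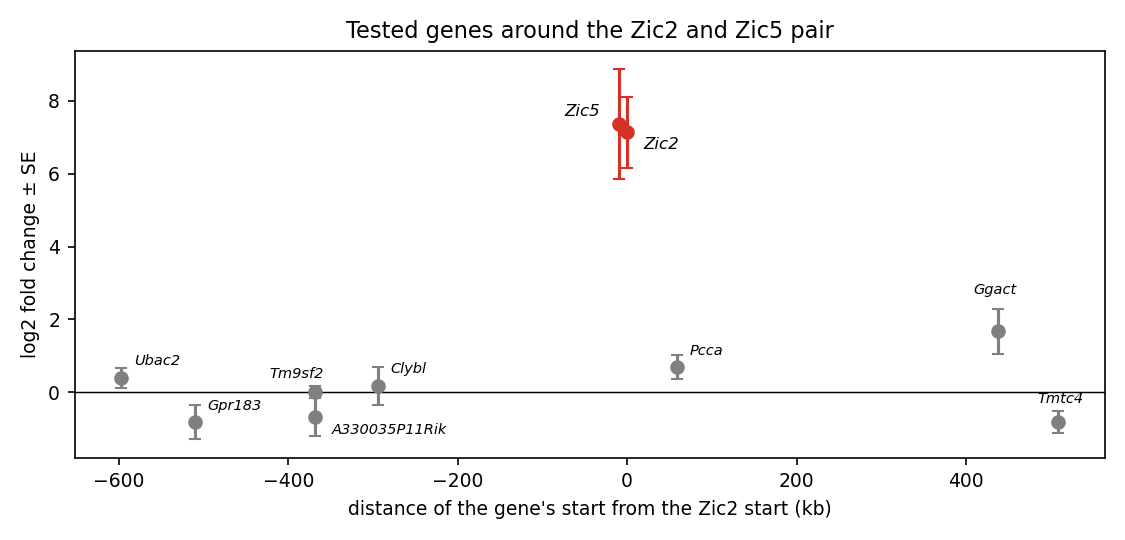
Log2 fold change ± SE (vertical axis) of the tested genes around Zic2 and Zic5 against the distance of each gene's start from the Zic2 start in kb (horizontal axis). Zic2 and Zic5 (red) lie at 7.13 and 7.36, and the 8 neighbours (grey) between -0.82 and 1.68.

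Relatives of the Zic genes moved in both directions. Of the 6 GLI and GLIS genes, all tested, 2 rose and 1 fell, with a median log2 fold change of -0.67. By edgeR, 7.17% of all tested genes were called higher and 2.98% lower. Glis3, a zinc finger factor of kidney, pancreas and thyroid, rose from 2.25 ± 1.03 to 29.1 ± 4.48 CPM (SD, n = 3; edgeR adjusted p = 0.00137), and Glis2, a factor of kidney, rose from 15.7 ± 1.80 to 45.6 ± 15.7 CPM (adjusted p = 0.00947). Gli2, the main activator of Hedgehog targets, fell from 343 ± 115 to 170 ± 26.3 CPM (edgeR adjusted p = 0.0369), a call lost without C1, C3, K2 or K3 (0.0635 to 0.134). Of 16 Hedgehog pathway genes 15 were tested, 4 fell and 0 rose (edgeR), at a median log2 fold change of -0.59. At an unadjusted p under 0.05, 1 was higher and 6 lower, DESeq2 called 1 higher and 5 lower, and limma-voom 0 and 5. 2.98% of all tested genes were called lower. Cdon, a Hedgehog coreceptor, fell from 399 ± 95.3 to 156 ± 34.7 CPM (edgeR adjusted p = 0.00949). Gas1, another coreceptor, and Disp1, which releases the ligand, fell by 0.96 and 1.31 on the log2 scale. The Gas1 call was lost without C3, K2 or K3 (edgeR adjusted p = 0.0619 to 0.0780), and the Disp1 call without C1, C3 or K2 (0.0739 to 0.0819). With Xist in the model 2 Hedgehog genes were called lower, and Gli2 and Disp1 were not (edgeR adjusted p = 0.121 and 0.0612). With replicates 1 and 2 alone none of the 4 was called lower.

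Tested genes that share the embryonic territories of the Zic family did not move as a block. Of 20 genes of the neural plate border, dorsal neural tube and neural crest, 11 were tested, 2 rose, 2 fell and 7 did not pass. DESeq2 called 4 higher and 2 lower, and by edgeR 7.17% of all tested genes were called higher and 2.98% lower. Among untested genes, control-labelled and knockout-labelled counts were 0 and 111 for Msx3, 0 and 31 for Msx1, 0 and 29 for Sox8 and 8 and 38 for Snai1. They were 3 and 8 for Pax7, 1 and 3 for Wnt1, 11 and 6 for Atoh1 and 0 for Olig3. Pax3, a factor of dorsal neural tube and neural crest, rose from 0.513 ± 0.340 to 14.3 ± 1.69 CPM (edgeR adjusted p = 0.00116), and Lmx1a, a roof plate factor, from 0.386 ± 0.146 to 4.92 ± 1.67 CPM (adjusted p = 0.00652). Pax3 and Lmx1a, with 41 and 31 control-labelled counts, passed the filter only through the knockout-labelled libraries. The count of genes that rose therefore does not speak for the list. Snai2, a neural crest factor also active in basal epidermis, fell from 245 ± 57.2 to 99.4 ± 10.6 CPM (edgeR adjusted p = 0.00628), and the ligand Wnt3a from 12.0 ± 1.62 to 2.85 ± 0.575 CPM (0.00617). Foxd3, a neural crest factor, stayed untested, at 0.188, 0 and 0 CPM with the control label and 0.381, 0.772 and 0.227 CPM with the knockout label. Of 9 genes described elsewhere as regulated by ZIC proteins, 5 were tested, and Pax3 rose and Snai2 fell. Here too the rise of Pax3 does not speak for the list. Drd1, a dopamine receptor of the same list, had no count in any library.

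Of 13 cerebellum and midbrain genes 7 were tested, 5 rose and 0 fell (edgeR, also 0 lower at an unadjusted p under 0.05 and by DESeq2 and limma-voom), at a median log2 fold change of 4.18, where 7.17% of all tested genes were called higher. En2 and Barhl2, with 0 control-labelled counts, En1, with 2, Gbx2, with 4, and Pax2, with 21, passed the filter only through the knockout-labelled libraries. Neither the count nor the median therefore speaks for the list. En1, a factor of midbrain, hindbrain and dorsal dermis, rose from 0.0228 ± 0.0395 to 4.78 ± 1.65 CPM (edgeR adjusted p = 0.00298), and Pax6, a factor of eye and cerebellar granule cells, from 0.854 ± 0.702 to 12.4 ± 3.38 CPM (0.00581). The ratio of pooled En1 counts was 187 (exact 95% interval 51.5 to 1552), from 2 control-labelled counts. Barhl2, a factor of spinal and diencephalic neurons, had 0 control-labelled counts and 1.73 ± 0.427 CPM, at least 44.8-fold higher (edgeR adjusted p = 0.00875). The call of Meis1, a homeobox factor (12.3 ± 3.40 to 33.6 ± 5.60 CPM; edgeR adjusted p = 0.0131), was lost without K2 (0.0505), as was that of En2 (0.0575), which was also lost with Xist in the model (edgeR adjusted p = 0.0502). Neurod1 had 0 counts in all libraries but K3, at 0.0325 CPM, and Pax5 and Ptf1a had none. Calls of En1, Glis3, Pax3, Snai2, Tbx15 and Twist1 were kept in all 17 settings, while with replicates 1 and 2 alone those of Glis2, Cdon, Lmx1a, Wnt3a, Pax6, Barhl2, Meis1 and En2 were lost. Of 11 genes of dorsal dermis and somite 6 were tested and En1, Tbx15 and Twist1 rose, against 7.17% of all tested genes called higher. En1 and Twist1, with 2 and 4 control-labelled counts, passed the filter only through the knockout-labelled libraries, so this count does not speak for the list either. Twist1, a mesenchymal factor, went from 0.0488 ± 0.0515 to 7.99 ± 3.01 CPM (edgeR adjusted p = 0.00157), while its dermal relative Twist2 had 0 to 1.06 CPM in control-labelled and 0.0346 to 0.130 CPM in knockout-labelled libraries and was not tested.

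**Figure D5:**
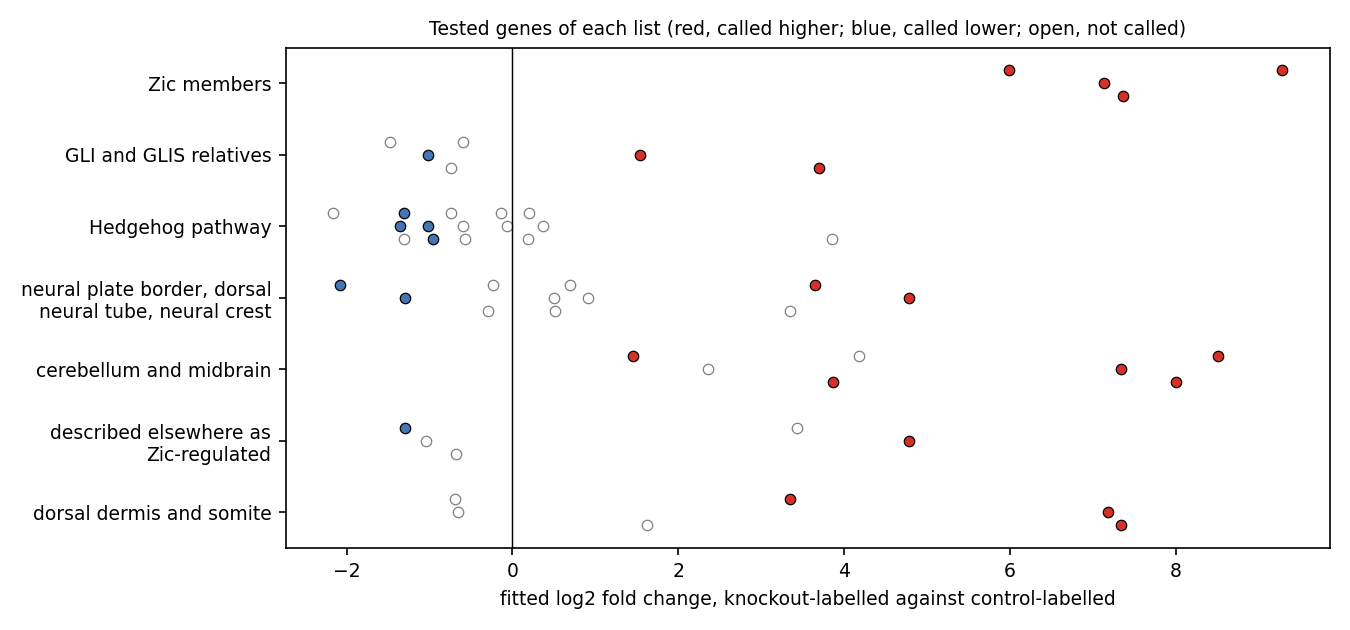
Fitted log2 fold changes (horizontal axis) of the tested genes of the Zic family and of 6 gene lists (rows; a gene can stand in several); red points were called higher, blue lower and open ones not called. The 4 Zic genes lie between 5.98 and 9.28, while the Hedgehog pathway holds 4 blue and no red points.

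The sorted population expressed its epidermal markers in both groups, and the summed markers of each other cell type lay below the epidermal sum. Krt5 alone had means of 23080 (control-labelled) and 17910 CPM (knockout-labelled), so a lower sum does not measure purity. Of the sorting markers, Epcam had 138 and 268 CPM, Ly6a (Sca1) 38.6 and 56.4, and Itga6 (α6-integrin) 1241 and 1087. Dcn, the most abundant fibroblast marker listed, had 242 and 299 CPM. The summed level of 12 markers of interfollicular epidermis was 35350 to 51190 CPM in the control-labelled and 32460 to 35470 CPM in the knockout-labelled libraries, and 2 of them, Trp63 and Col17a1, fell. Over all tested genes, edgeR called 2.98% lower and 7.17% higher. The sum of 9 fibroblast markers, cells in which Zic genes can be active in dorsal skin, was 258 to 822 CPM and 522 to 812 CPM, so the groups overlapped, and 1 of 8 tested (Fbn1) rose. Melanocyte and Schwann cell markers (8 each) summed to 14.6 to 19.1 and 111 to 143 CPM in control-labelled and 19.8 to 34.1 and 123 to 153 CPM in knockout-labelled libraries, with edgeR and limma-voom calling 0 of 6 tested in either list. DESeq2 called 2 melanocyte markers higher, and at an unadjusted p under 0.05 edgeR had 3 melanocyte and 0 Schwann cell markers. The sum of 10 neuronal markers was higher in every knockout-labelled library (24.0 to 34.4 against 6.97 to 15.4 CPM), with Tubb3 and Map2 called among 5 tested. Tubb3, with 11 control-labelled counts, passed the filter only through the knockout-labelled libraries. Nefm (0.0715 to 0.749 CPM) and Rbfox3 (0.411 to 1.79 CPM) were tested and not called, at edgeR adjusted p = 0.114 and 0.276, and Snap25 had 0.621 and 0.620 CPM. Of the 5 untested, Nefl had 0 counts in all libraries, and mean levels went from 0.431 to 0.0346 CPM for Stmn2, 0.167 to 0.252 for Elavl3, 0.0696 to 0.0802 for Elavl4 and 0.262 to 0.111 for Syt1. Merkel cell markers summed to 54.7 to 104 against 5.46 to 10.1 CPM and all 4 tested (Krt18, Isl1, Sox2 and Piezo2) rose, where 7.17% of all tested genes were called higher. Isl1 and Sox2, with 0 control-labelled counts, passed the filter only through the knockout-labelled libraries, so this count does not speak for the list. Krt18 alone had a knockout-labelled mean of 37.6 CPM. Of the 4 untested, mean levels went from 0.0893 to 0.857 CPM for Krt20, with 2.18 CPM in K1, from 0.468 to 0.791 for Krt8, from 0.216 to 0.298 for Chga and from 0.127 to 0.0839 for Atoh1, the factor that defines that lineage. Hair follicle markers (8, all tested) summed to 706 to 797 CPM in control-labelled and 956 to 1479 CPM in knockout-labelled libraries. Of these, edgeR called Krt25 and Krt71 lower and 0 higher. At an unadjusted p under 0.05, 3 were higher and 2 lower, DESeq2 called 1 higher and 2 lower, and limma-voom 0 and 2. Among the others, mean levels went from 29.1 to 62.3 CPM for Lhx2, 533 to 858 for Krt17 and 3.78 to 14.8 for Hoxc13. They went from 161 to 227 for Sox9, 7.53 to 10.7 for Msx2 and 6.12 to 1.35 for Shh. Skeletal muscle, endothelial and leukocyte sums overlapped between the groups, and edgeR, DESeq2 and limma-voom called 0 of their 12 tested markers, with 0 at an unadjusted p under 0.05. The part of such cells in the Zic levels was not tested.

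The genes whose levels were most like those of the Zic genes over the 6 libraries are given as a description. Likeness was Pearson's r of log2(CPM + 1), and with 3 libraries in each group the difference between groups sets most of it. For Zic1 the closest were Abcb1b, a drug efflux transporter, and Zfp365 (r = 0.999 for each), followed by Gata4, a factor of heart and gut (r = 0.998; 0.237 ± 0.411 to 18.2 ± 2.61 CPM), Cnnm1 and the adenylate cyclase Adcy7. For Zic2 they were the kinase Aatk, Hmx1, a homeobox factor of the eye and ear (each r at 1.00 after rounding), Nfasc, Fkbp11 and Hoxd13. For Zic4 they were Sv2b, a synaptic vesicle protein (r = 0.997; 0.932 ± 0.238 to 14.5 ± 8.46 CPM), Scx, Chrna4, Fam195a and Ano5. For Zic5 they were Foxc2, a forkhead factor of mesoderm (r at 1.00 after rounding; 0 to 0.973 ± 0.497 CPM), Dnah10, Onecut3, Crabp1 and Zar1. The Zic genes were not each other's nearest. Zic2 ranked 129 of 13803 for Zic1 (r = 0.982), Zic4 ranked 665 (r = 0.935), and Zic4 and Zic5 had the lowest r among the 6 pairs of members (0.736).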

How the data were processed

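The authors deposited raw counts per gene symbol, 1 file per library, whole numbers with uneven totals. Per the labels' protocols, 10 ng of RNA was amplified (Ovation V2), libraries were built from 100 ng of cDNA, and reads were single-end, 100 nucleotides long. The submitters' processing notes name HTSeq 0.6.1, TopHat2 2.0.13, DESeq2 1.6.3, Cufflinks 2.2.1 and mm10, without roles; annotation and strand are not given in the sources used here. No molecular identifiers are named, so intervals and floors cover counting error only.

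Groups came from the sample titles. Counts were tested with edgeR 4.0.16 in R 4.3.3 (TMM, filterByExpr with a minimum count of 10 and total of 15, two-sided quasi-likelihood F test, prior count 0.125, Benjamini-Hochberg over 14890 genes, threshold 0.05). The SE is the log2 fold change divided by the square root of F. A fold against 0 control-labelled counts is a bound against 3 counts over the group. The code was tested on simulated counts. Chi-square over its degrees of freedom was at least 28.6 for any pair of libraries, so no library repeats another. Positions and lengths are from GENCODE M21 (GRCm38, as mm10), in which 23753 symbols matched 1 gene.

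The members and lists were chosen with earlier results of these data known. Named are the members, up to 6 counted genes per locus within 500 kb, per pathway list up to 4 called genes of lowest p, or else the most abundant, and the 5 tested genes most like each member; others were chosen after their values were seen. Some genes that this rule covers are not reported here. Alternatives were other scalings, filters, tools (DESeq2 1.42.0, limma-voom 3.58.1), a replicate block, left-out libraries, an Xist covariate and a GC and length offset (known for 97.8% of tested genes). Replicates 2 and 3 alone were added after seeing the data. Figures used matplotlib 3.10.9.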

Additional observations from a re-analysis of the deposited data

How the results depend on the processing

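Under 17 alternatives every fitted log2 fold change of a Zic gene kept its positive sign. Zic1 and Zic2 passed in all 17, Zic4 in 15 of the 16 that tested it and Zic5 in 6 of 14. With at least 50 counts in 3 libraries 2 members were called higher, because Zic4 and Zic5 were no longer tested. With replicates 1 and 2 alone 2 members were called, Zic4 had 8.63 and Zic5 7.60, neither past the threshold. The log2 fold change of Zic5 also missed it with the replicate block (7.29; adjusted p = 0.0788) and the Xist covariate (6.88), and leaving out 1 library gave 7.13 to 7.66. The cause was not tested, though each of these fits has fewer residual degrees of freedom.

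The count of called genes was 1512, against 2560 by DESeq2, 439 when only replicates 1 and 2 entered, 810 with the Xist covariate, 2694 when only replicates 2 and 3 did and 811 to 1393 with 1 library left out. Lower genes numbered 444, against 917 with the GC and length offset, 877 by DESeq2 and 174 with the Xist covariate. The labels do not say whether replicate numbers pair the libraries. Same-numbered correlations of deviations were low, at 0.175, 0.228 and 0.0773, but each library correlated best with its own number, so a pairing was not excluded. The replicate block left 1451 calls, took that of En2 (edgeR adjusted p = 0.0521) and called 7 Hedgehog genes lower, against 4. Zic5 rests on 11 to 26 counts per knockout-labelled library.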
